A study of Mus musculus with 18 samples.

Results

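The 10 genes described here are Yap1 and Wwtr1, which encode the coactivators YAP and TAZ, 4 genes of the CCN family of matricellular proteins (Ccn1, Ccn2, Ccn4 and Ccn5), and Ankrd1, Amotl2, Lats2 and Ajuba, which are commonly read as targets or regulators of these coactivators. They were chosen by symbol among the 54347 genes of the count table, and each of the 10 matched 1 gene. The choice was made with earlier results of these data known, so counts set beside all genes are a description. RNA was sequenced from mesenchymal stem cells (MSC) grown out of the bone marrow of male C57BL/6J mice, with 6 groups of 3 libraries. In the first experiment the cells were untreated (control) or received for 24 h either CK666, which blocks branching of actin filaments by the Arp2/3 complex, or cytochalasin D (CytoD), which caps actin filaments. In the second experiment, where all cells were transfected, they carried a control siRNA (siControl), an siRNA against Arp4 (siArp4), the product of Actl6a, or the Arp4 siRNA with CK666 (siArp4+CK666). Cells with siControl and CK666 together were not analysed here. Control siRNA libraries carry the label mock in one field, while the methods list a control siRNA sequence. Marrow of 6 mice went into a primary cell line, and the paper states that such a line served all its studies. The 3 libraries of a group are separate preparations of cells, and nothing ties a library to an animal. The p-values measure the spread between these libraries, which may be technical, and not a spread between animals.

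YAP and TAZ carry mechanical and cytoskeletal signals to the nucleus, where they bind TEAD factors and raise transcription. The kinases LATS1 and LATS2 of the Hippo pathway phosphorylate both proteins and hold them in the cytoplasm, and angiomotins and LIM proteins of the Ajuba family act on the same step. CCN1 (also called CYR61) and CCN2 (also called CTGF) are secreted proteins and among the most used readouts of YAP and TAZ in stromal cells. RNA levels of Yap1 and Wwtr1 do not report the activity of the proteins, which depends on phosphorylation and place in the cell.

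The RefSeq promoter table (GRCm38.p6, 250 bases before to 50 after a start site) held entries for 7 of the 10 genes, with 9 start sites in all. Those for Ccn2, Ccn4 and Ccn5 were not in it. The TEAD core GGAATG, searched on both strands, occurred in a promoter of each of the 7 genes, in 8 of the 9 entries, against 14.7% of 32851 mouse promoters of the same length. The AP-1 site TGANTCA and the CArG box bound by SRF, each also searched on both strands, occurred in 7.81% and 1.63% of all promoters and in 0 of these 9. A match describes the letters and is not evidence of binding. The 10 genes were chosen from a pathway that works through TEAD, so the share with the core is not independent of that choice. The windows around the 9 distinct cores are shown because the core occurred in each of the 7 genes with an entry. Each runs 5′ to 3′ on the strand where the core reads GGAATG, with the core in capitals, 10 bases on each side, and the position of the core's first base on the gene strand counted from the start site:

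Yap1 at -141, chr9:8004722-8004747, minus strand: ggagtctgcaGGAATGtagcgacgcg
Wwtr1 at -136, chr3:57576031-57576056, minus strand: taaactcaaaGGAATGcagataggcg
Ccn1 at -103, chr3:145650073-145650098, plus strand: aaacatctcaGGAATGttggttggcg
Ankrd1 at -210, chr19:36120039-36120064, minus strand: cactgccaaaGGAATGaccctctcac
Ankrd1 at -123, chr19:36119952-36119977, minus strand: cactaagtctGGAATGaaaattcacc
Amotl2 at -65, chr9:102717729-102717754, minus strand: tgctatgccaGGAATGtgagagtttc
Lats2 at +5, chr14:57746104-57746129, minus strand: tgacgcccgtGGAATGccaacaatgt
Ajuba at -186, chr14:54577832-54577857, plus strand: ggggcactgtGGAATGtatccatcaa
Ajuba at -164, chr14:54577810-54577835, plus strand: gtttacagttGGAATGcgcggagggg

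The 250 bases before the start sites of Ccn1, of Ankrd1 and of Ajuba are shown whole on the gene strand, because Ccn1 and Ajuba were expressed and fell with CK666 while Ankrd1, with 2 cores, stayed at or near 0. The core is in capitals and reads CATTCC where it lies on the other strand. Ccn1 is at chr3:145649986-145650235, Ankrd1 at chr19:36119845-36120094 and Ajuba at chr14:54577662-54577911, all on the minus strand:

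Ccn1: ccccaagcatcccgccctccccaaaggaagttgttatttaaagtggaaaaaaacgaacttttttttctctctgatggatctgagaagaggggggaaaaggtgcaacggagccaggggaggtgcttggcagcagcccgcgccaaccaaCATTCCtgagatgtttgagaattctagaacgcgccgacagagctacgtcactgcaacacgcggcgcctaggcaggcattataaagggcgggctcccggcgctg
Ankrd1: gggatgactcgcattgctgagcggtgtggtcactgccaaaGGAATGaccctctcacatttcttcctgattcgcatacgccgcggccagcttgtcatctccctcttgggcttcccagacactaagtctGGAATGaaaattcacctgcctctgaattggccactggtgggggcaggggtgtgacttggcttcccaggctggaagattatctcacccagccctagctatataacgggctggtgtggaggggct
Ajuba: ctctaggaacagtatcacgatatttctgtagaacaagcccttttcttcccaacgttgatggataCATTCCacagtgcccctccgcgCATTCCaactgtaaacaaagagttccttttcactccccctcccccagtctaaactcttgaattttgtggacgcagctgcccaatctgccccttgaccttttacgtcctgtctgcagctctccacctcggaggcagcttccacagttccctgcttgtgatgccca

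Total estimated counts ran from 18075610 to 24733212 per library. Mitochondrial genes took 1.36% to 1.89% of counts in the first experiment, 1.30% to 2.65% in siControl and 2.67% to 3.36% in both knockdown groups, so that this share moved with both comparisons against siControl. Its part in the results was not tested. Actl6a averaged 896 ± 209 normalized counts in siControl, 41.7 ± 20.1 in siArp4 and 16.8 ± 6.76 in siArp4+CK666 (mean ± SD, n = 3), and every knockdown library was below every siControl library. Of 10 mesenchymal markers, Col1a1, Itgb1, Pdgfra, Pdgfrb, Cd44, Vcam1 and Ly6a were expressed, Eng reached at most 60 counts, Nt5e at most 8, and Thy1 was at 0 in all 18 libraries. Ptprc, Itgam and Cd3e of blood cells and Cdh5 of endothelium were at 0 or 1 count, while Csf1r of macrophages reached 144 counts and Kdr of endothelium 25, neither at 0 in any library, Adgre1 reached 12 counts in 1 library, Pecam1 9 and Tek 3. In bulk RNA, fewer cells of a type and less RNA per cell cannot be told apart.

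In untransfected cells both actin drugs lowered transcripts of Ccn1, Ccn2 and Ccn4. Ccn2 stood at 7.12% of its control mean with CK666 and at 10.9% with CytoD, Ccn1 at 41.7% and 32.3%, and Ccn4 at 41.6% and 28.7%. Ccn5 stood at 57.8% and 149%, above control with CytoD. A gene was called where DESeq2 gave an absolute log2 fold change over 1 and a Benjamini-Hochberg adjusted p below 0.01 over all genes. With CK666, 4 of the 10 genes were called, all lower (Ccn1, Ccn2, Ccn4 and Ajuba), where 11% of all 14597 genes tested were called and 6.06% were called lower. With CytoD, 3 were called, all lower (Ccn1, Ccn2 and Ccn4), against 9.12% of 13717 genes tested and 4.32% called lower. Both comparisons use the same control libraries. Over the 9 measured members the median log2 fold change was -0.79 for CK666 and -0.58 for CytoD, against 0.01 and 0.01 over all genes tested. Ankrd1 was not measurable, with 1 count in control replicate 1 and 0 in the other 17 libraries, where a count of 0 allows up to 3 counts per library.

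Of the coactivators, Yap1 passed in neither comparison and Wwtr1 was higher with CK666. Normalized counts of Yap1 (chr9:7931999-8004596, minus strand, GRCm38) were 3576, 3769.5 and 3560.0 in control, 3039.7, 3595 and 3356 in CK666 and 3286, 3241 and 3352 in CytoD. The CK666 libraries overlapped the control range, whereas the CytoD libraries lay slightly below it. The log2 fold changes of -0.13 (SE 0.09, adjusted p 0.28) and -0.14 (SE 0.09, adjusted p 0.215) did not pass, and their 95% intervals ran from -0.30 to 0.05 and from -0.32 to 0.04. Wwtr1 (chr3:57455649-57575910, minus strand) was at 2112, 2089.7 and 1945 in control, 2905, 3483 and 3427 in CK666 and 2304, 2211 and 2271 in CytoD. Each CK666 library was above every other library of this experiment. The log2 fold change of Wwtr1 was 0.68 (SE 0.10, adjusted p 3.22e-10) with CK666, which passed the adjusted p and missed the fold minimum, and 0.14 (SE 0.10, adjusted p 0.275) with CytoD.

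Among the CCN ligands, Ccn2 (chr10:24595442-24598683, plus strand) was at 32102, 30303 and 32718 normalized counts in control. CK666 libraries held 2475, 2029.6 and 2272, and CytoD libraries 3355, 3428 and 3584. The 3 groups did not overlap, with every CK666 library below every CytoD library. The CK666 log2 fold change was -3.81 (SE 0.10, 95% interval -4.00 to -3.62), a 14.0-fold fall whose adjusted p was too small for DESeq2 to store and was 1.36e-08 in edgeR. The CytoD change was -3.20 with a 95% interval of -3.39 to -3.01. A larger absolute log2 fold change was seen in 1.16% of genes tested with CK666 and in 0.569% with CytoD. Exons of Ccn2 share 665 bases with Gm15270 on the other strand. That transcript had a mean count of 37.6 against 10630 for Ccn2, and strand was not recorded. The direct comparison of CK666 with CytoD gave -0.61 (SE 0.10, adjusted p 3.72e-09) for Ccn2, which missed the fold minimum.

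Ccn1 (chr3:145646976-145649981, minus strand), whose promoter is printed above, was at 8654, 8231 and 8958 in control, 4059, 3196 and 3526 in CK666 and 2827, 2655 and 2856 in CytoD. Here the order of the drugs was the opposite of that for Ccn2, with each CytoD library below each CK666 library. Between the drugs the log2 difference was 0.37 (SE 0.11, adjusted p 0.00246), under the fold minimum. Ccn1 fell with CK666 by 1.26 in log2 terms (SE 0.11, adjusted p 1.01e-29) and with CytoD by 1.63 (SE 0.11, adjusted p 8.94e-49). Ccn4, a Wnt-induced member also called WISP1 (chr15:66891320-66923201, plus strand), was at 1801, 1857 and 1979 in control, 619, 943 and 786 in CK666 and 621, 534 and 464 in CytoD. All treated libraries lay under all control libraries, and the ranges of the treated groups overlapped slightly. Its changes were -1.26 (SE 0.17, adjusted p 1.09e-12) and -1.80 (SE 0.17, adjusted p 1.74e-24).

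Ccn5, the family member that lacks the carboxy-terminal domain and is also called WISP2 (chr2:163820861-163833146, plus strand), did not follow the other 3. Its libraries held 2255, 2207 and 2077 in control, 1378, 1167 and 1237 in CK666 and 2975, 3281 and 3489 in CytoD. The drugs stood on opposite sides of the control range without overlap. The differences from control, -0.79 (SE 0.11, adjusted p 4.10e-12) with CK666 and 0.58 (SE 0.11, adjusted p 5.59e-07) with CytoD, both passed the adjusted p and missed the fold minimum. Set directly against CytoD, CK666 gave -1.37 (SE 0.11, adjusted p 3.61e-35). Ccn5 was the 1 member called in that comparison, where 11.8% of 15038 genes tested were called and 6.74% were called lower.

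**Figure D1:**
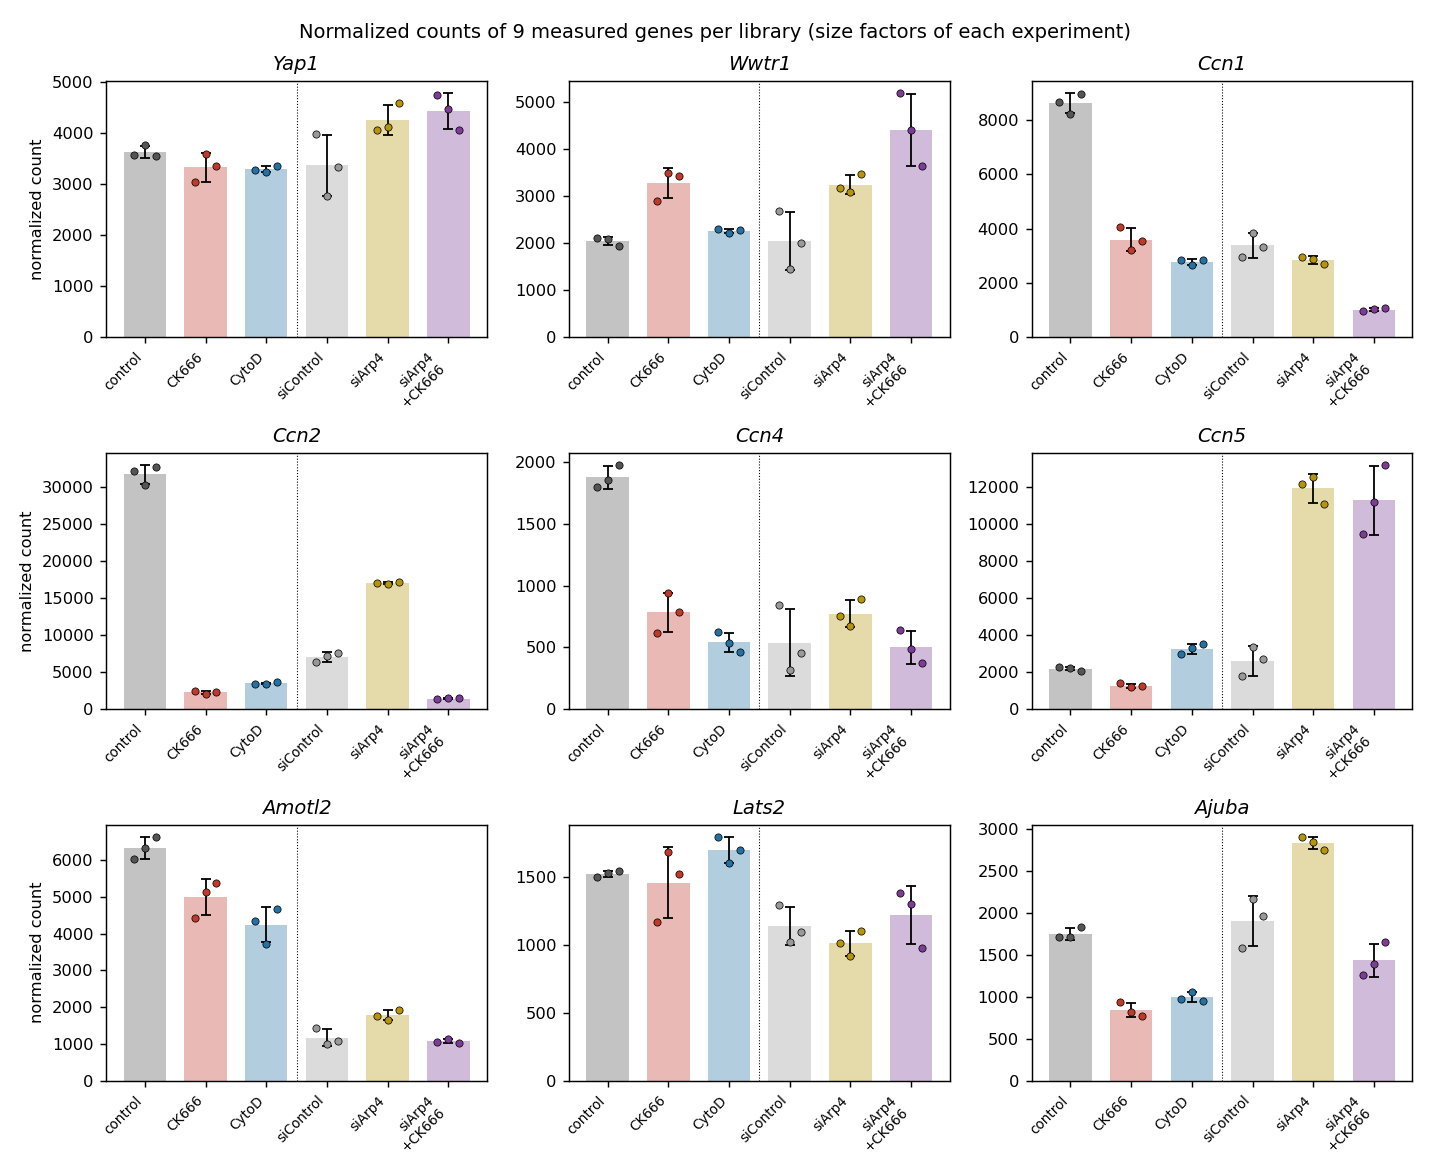
Normalized counts (size factors of each experiment) of the 9 measured genes in the 18 libraries, one panel per gene; points are libraries, bars the mean and whiskers the SD of 3 libraries, and the dotted line separates the experiments, whose scales were set separately. Ccn2 drops from 31708 ± 1255 in control to 2259 ± 223 with CK666 and 3456 ± 117 with CytoD, and the Ccn5 points of the knockdown groups are above all others.

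Of the cytoplasmic regulators, Ajuba, a LIM protein that holds LATS kinases at junctions (chr14:54567472-54577558, minus strand), was at 1709, 1713 and 1829 in control, 944, 819.6 and 777 in CK666 and 971, 1063 and 950.0 in CytoD. Both drugs left every library under the control range, and the drug groups did not overlap. Ajuba was called with CK666 at -1.05 (SE 0.11, adjusted p 1.45e-19), just past the fold minimum, and the call was lost at -0.98 without CK666 replicate 3. With CytoD it passed the adjusted p at -0.81 (SE 0.11, adjusted p 3.47e-12) and missed the fold minimum. Amotl2, an angiomotin that binds YAP (chr9:102716672-102733418, plus strand), was at 6023, 6336 and 6629 in control, 4435, 5146 and 5383 in CK666 and 4345, 3726 and 4675 in CytoD. All treated libraries were below control, with changes of -0.34 (SE 0.12, adjusted p 0.0132) and -0.58 (SE 0.12, adjusted p 1.13e-05), of which the second passed the adjusted p. Lats2, the kinase that phosphorylates YAP and TAZ (chr14:57689662-57758388, minus strand), ranged from 1170 to 1684 over the CK666 libraries, from 1603 to 1796 in CytoD and from 1498 to 1543 in control. The CK666 and control ranges overlapped, and its changes were -0.06 (SE 0.14, adjusted p 0.754) and 0.16 (SE 0.14, adjusted p 0.4). Lats2 shares 2955 exon bases with Gm49361 on the same strand, which was at 0.

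Without the fold minimum, 6 members passed with CK666 (1 higher, 5 lower) against 30% of genes tested, and 6 with CytoD (1 higher, 5 lower) against 29.6%. The summed level of the 10 mesenchymal markers moved as well, from 93840 to 98670 normalized counts in control to 44760 to 51270 in CK666 and 82100 to 87970 in CytoD. Collagen Col1a1 is the largest term in that sum and changed by -1.48 (SE 0.09, adjusted p 1.20e-57) with CK666. Of the 8 markers tested, all 8 were lower with CK666 (median log2 fold change -0.58). With CytoD the sum fell although 5 of the 8 were higher and 3 lower (median 0.24). The part of these marker changes in the member results was not tested.

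**Figure D2:**
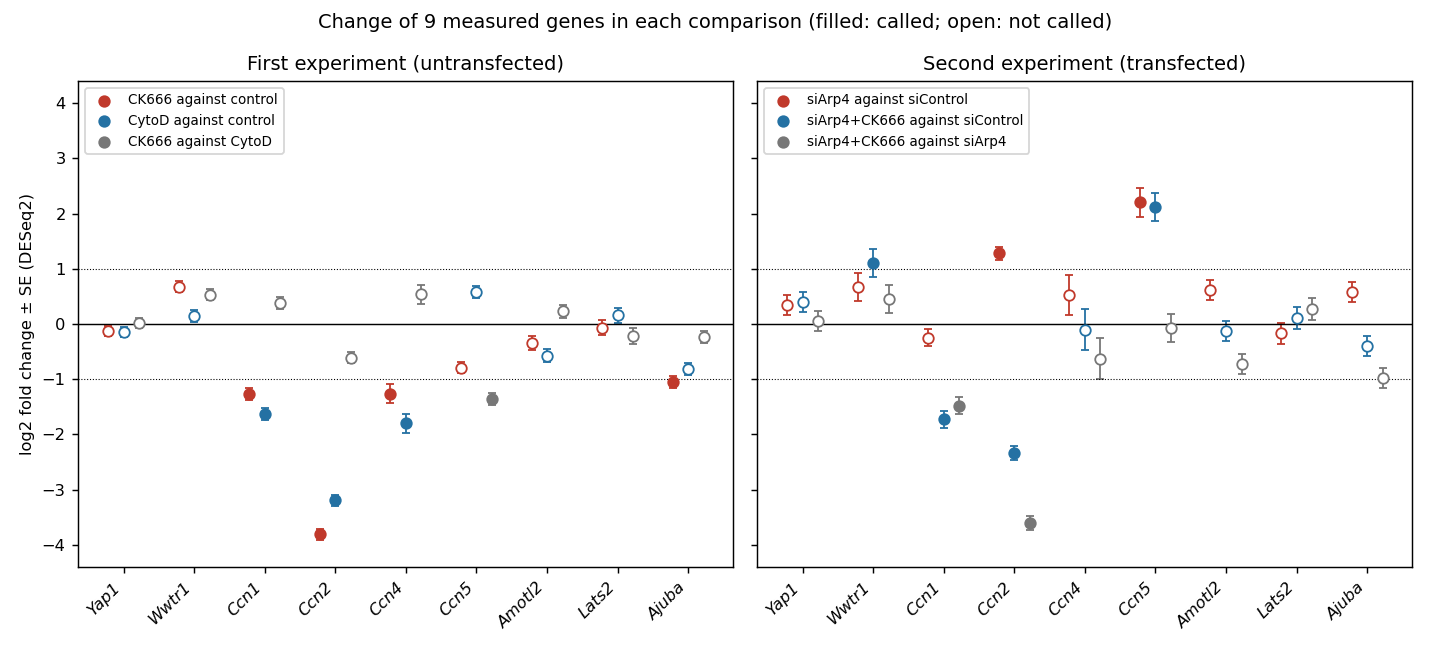
Log2 fold change with its SE (DESeq2) of the 9 measured genes in 6 comparisons, first experiment on the left and second on the right; filled points were called, open points were not, and dotted lines mark a fold change of 2. Ccn2 is below -3 with both drugs on the left and at 1.28 in siArp4 against siControl on the right, where Ccn5 is above 2 in both knockdown groups.

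In the second experiment knockdown of Arp4 went with higher Ccn2 and Ccn5 transcripts, and CK666 given to knockdown cells with lower Ccn1 and Ccn2. Between siArp4 and siControl 2 of the 10 members were called, both higher (Ccn2 and Ccn5), against 16.2% of 15415 genes tested and 6.69% called higher. Between siArp4+CK666 and siControl 4 were called, Wwtr1 and Ccn5 higher and Ccn1 and Ccn2 lower, against 20.4% of 15415 genes tested, 8.06% higher and 12.4% lower. Those comparisons share the siControl libraries. Between siArp4+CK666 and siArp4 2 were called, both lower (Ccn1 and Ccn2), against 5.75% of 14098 genes tested and 4.12% called lower. The summed level of the mesenchymal markers ran from 37120 to 64710 in siControl and from 109400 to 119700 in siArp4. In siArp4+CK666 it ran from 47590 to 56150. Col1a1, the largest term, averaged 26140, 86750 and 34680 in these groups. Of the 8 mesenchymal markers tested, 4 were higher and 4 lower in siArp4 against siControl (median log2 fold change -0.01). In siArp4+CK666 against siControl, 2 were higher and 6 lower (median -0.83). The summed level of 4 endothelial markers ran from 5.01 to 6.55, from 9.50 to 13.3 and from 21.1 to 26.1 in these groups. Of these Kdr, a VEGF receptor, averaged 3.84, 9.18 and 23.7 normalized counts and was called higher in siArp4+CK666 than in siControl (log2 fold change 2.67, SE 0.68, adjusted p 0.000396), Cdh5 was at 0 in all 18 libraries, and Csf1r averaged 80.96, 62.6 and 29.3. The part of these marker levels in the results was not tested. Member medians were 0.57, -0.10 and -0.63, beside -0.05, -0.05 and 0.02 over all genes tested.

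Yap1 was at 3980.1, 2777 and 3344 in siControl, 4055, 4127 and 4595 in siArp4 cells and 4756, 4479 and 4060.4 in siArp4+CK666 cells. The siControl libraries were the lowest and the most spread, and none reached the knockdown groups. Against siControl the log2 fold change was 0.34 (SE 0.18, adjusted p 0.129) after knockdown alone, and CK666 on top brought it to 0.40 (SE 0.18, adjusted p 0.0618), neither of which passed. Wwtr1 was at 2687, 1449.9 and 1997 in siControl, 3172, 3086 and 3468 in siArp4 cells and 5185, 4398 and 3648 in siArp4+CK666 cells. Its groups formed 3 steps that did not overlap, although siControl varied from 1450 to 2687. Against siControl, Wwtr1 differed in log2 terms by 0.66 (SE 0.25, adjusted p 0.029) in siArp4, which did not pass, and by 1.11 (SE 0.25, adjusted p 7.42e-05) in siArp4+CK666, which was called. That call was lost at 0.91 without siControl replicate 2 and at 0.98 without siArp4+CK666 replicate 1. Between siArp4+CK666 and siArp4 the log2 difference of Wwtr1 was 0.44 (SE 0.25, adjusted p 0.286), which did not pass.

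Ccn2 was at 6322, 7172 and 7535 in siControl, 16987, 16846 and 17092 in siArp4 cells and 1289, 1429 and 1445 in siArp4+CK666 cells. The groups were far apart in relation to their spread, siArp4 above and siArp4+CK666 below the siControl range. After knockdown alone the log2 fold change of Ccn2 was 1.28 (SE 0.12, adjusted p 8.89e-23), or 2.42-fold. In the combination Ccn2 was lower than in siControl at -2.34 (SE 0.13, adjusted p 8.98e-74) and lower than in siArp4 at -3.61 (SE 0.13, adjusted p 3.22e-177), a 12.2-fold difference. Ccn1 was at 2957, 3849 and 3328 in siControl, 2959, 2871 and 2693 in siArp4 cells and 949.5, 1049 and 1057 in siArp4+CK666 cells. Here knockdown libraries overlapped siControl, and only the combination stood apart. Ccn1 gave -0.25 (SE 0.15, adjusted p 0.195) for knockdown alone and -1.48 (SE 0.15, adjusted p 2.67e-20) for CK666 in knockdown cells.

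Ccn5 held 1764, 3335 and 2689.8 in siControl, 12176, 12566 and 11074 in siArp4 cells and 9468, 11209 and 13193 in siArp4+CK666 cells. Both knockdown groups were above every siControl library and overlapped each other. In log2 terms Ccn5 rose by 2.20 (SE 0.26, adjusted p 3.21e-16) in siArp4 and by 2.12 (SE 0.26, adjusted p 2.62e-15) in siArp4+CK666, 4.60-fold and 4.35-fold, and CK666 in knockdown cells gave -0.08 (SE 0.26, adjusted p 0.918). Ccn4 was at 839.9, 314 and 457 in siControl, 752, 674 and 892 in siArp4 cells and 639, 490.3 and 371 in siArp4+CK666 cells. Its siControl libraries spanned the ranges of both other groups except at the top of siArp4, and no comparison passed. The direction of the siArp4+CK666 difference from siControl, -0.10, turned when siControl replicate 1 was left out (0.37) or siArp4+CK666 replicate 3 (0.07).

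Ajuba was at 1579, 2170.5 and 1965 in siControl, 2903, 2849 and 2756 in siArp4 cells and 1266, 1396 and 1651 in siArp4+CK666 cells. The siArp4 libraries were the highest without overlap. Ajuba passed the adjusted p but not the fold minimum in siArp4 against siControl at 0.57 (SE 0.18, adjusted p 0.00608) and in siArp4+CK666 against siArp4 at -0.98 (SE 0.18, adjusted p 1.67e-06). The second was called without siArp4 replicate 3 (-1.001) or without siArp4+CK666 replicate 3 (-1.09). Amotl2 was at 1425, 991 and 1086 in siControl, 1772, 1647 and 1922 in siArp4 cells and 1051, 1135 and 1031 in siArp4+CK666 cells. The siArp4 libraries again were highest, with 0.61 (SE 0.18, adjusted p 0.00393) for knockdown and -0.73 (SE 0.18, adjusted p 9.39e-04) for CK666 on top of it, both passing the adjusted p only in DESeq2. In edgeR the adjusted p values were 0.0196 and 0.0211, and that of Ajuba in siArp4 against siControl was 0.0249. Lats2 ranged from 916 to 1384 over the 9 libraries with overlapping groups and passed in no comparison.

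Whether the response to CK666 depends on Arp4 was asked by subtracting its effect in untransfected cells from that in knockdown cells. Transfection, knockdown and experiment cannot be told apart in this difference. No member was called (0 of 9 in DESeq2 and 0 in edgeR), while 4.42% of 13511 genes tested were called, and 2 members had an unadjusted p below 0.05 in DESeq2. For Ccn2 the difference was 0.20 (SE 0.14, adjusted p 0.399) with a 95% interval of -0.07 to 0.46, beside changes of -3.81 in untransfected and -3.61 in knockdown cells. For Ccn1 it was -0.22 (SE 0.17, adjusted p 0.458) with an interval of -0.55 to 0.11. The largest difference was in Ccn5, 0.71 (SE 0.28, adjusted p 0.0756) with an interval of 0.16 to 1.25, which did not pass. Amotl2 followed among the small unadjusted p values at -0.39 (SE 0.19, adjusted p 0.185). Intervals for Ccn4 (-0.17 to 1.42) and Wwtr1 (-0.73 to 0.25) were wide.

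**Figure D3:**
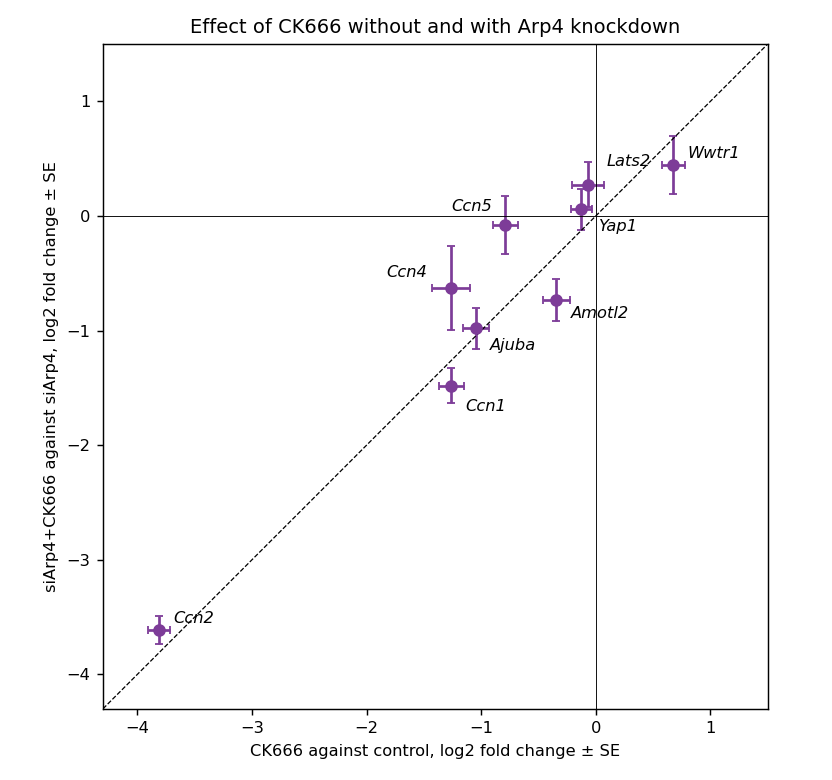
Log2 fold change with SE (DESeq2) of the 9 measured genes for CK666 in untransfected cells (x axis) and in Arp4 knockdown cells (y axis); the dashed line marks equal change. Ccn2 lies near the line at -3.81 and -3.61, and Ccn5 lies above it at -0.79 and -0.08.

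Levels between genes were compared per kilobase of exon, with all 18 libraries scaled together. In control cells the order of levels was Ccn2 (10786 ± 421 normalized counts per kb), Ccn1 (4153 ± 176), Ccn5 (1102 ± 44.2), Amotl2 (979.7 ± 49.5), Ajuba (467 ± 18.9), Wwtr1 (417 ± 17.8), Yap1 (382 ± 12.8), Ccn4 (329 ± 16.6) and Lats2 (213 ± 3.88). Of these neighbours, Wwtr1 and Yap1 had overlapping ranges and the others did not. With CK666 the level of Ccn2 per kb was 761 ± 72.9, with a range overlapping those of Amotl2 and Wwtr1, and Ccn1 was the highest member at 1715 ± 203. With CytoD it was Ccn5 that stood highest at 1648 ± 130.4. In siControl cells the level of Ccn2 was 2472 ± 237, in siArp4 6082 ± 46.4 with a range overlapping that of Ccn5 at 6361 ± 411, and in siArp4+CK666 491 ± 37.7, where Ccn5 led at 5951 ± 1077. Levels of Amotl2 were 979.7 ± 49.5 in control and 187 ± 34.1 in siControl, and those of Ccn4 329 ± 16.6 and 96.9 ± 47.9. Transfection and experiment cannot be told apart in such differences, which were not tested.

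**Figure D4:**
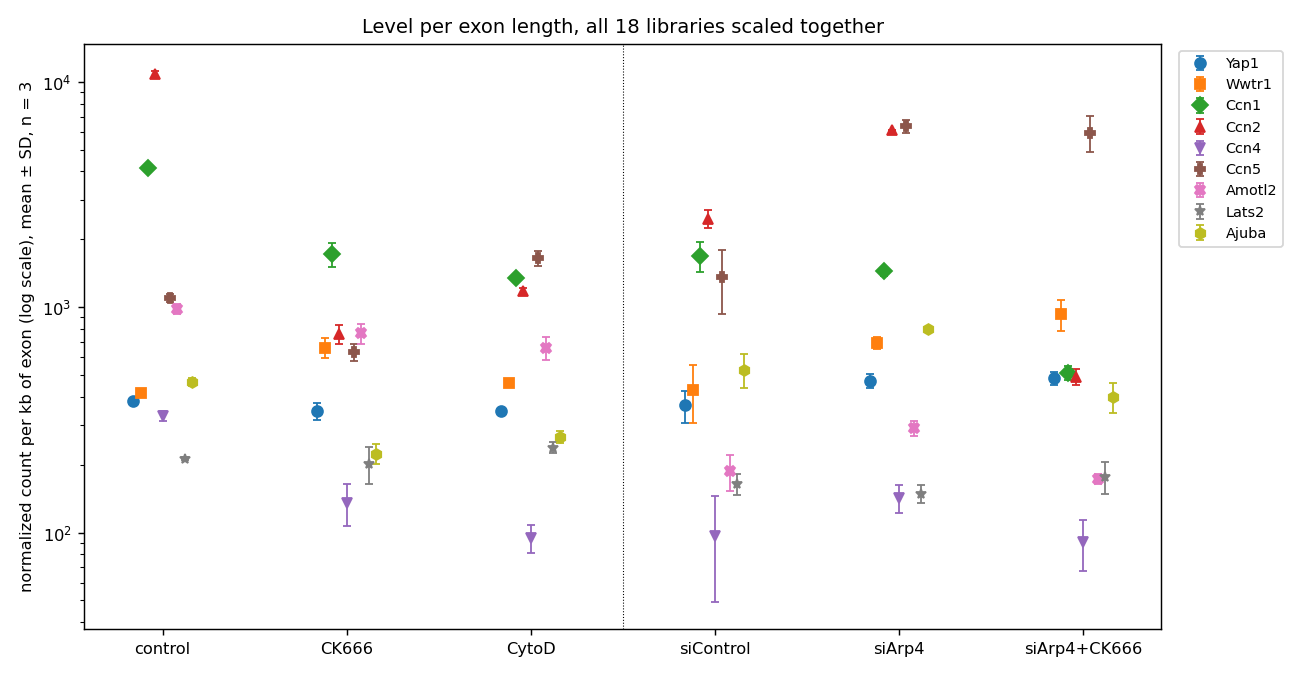
Level in normalized counts per kb of exon (log axis; mean ± SD of 3 libraries) of the 9 measured genes in the 6 groups, all 18 libraries scaled together, with a dotted line between the experiments. Ccn2 leads in control and siControl, Ccn1 in CK666 and Ccn5 in CytoD and siArp4+CK666.

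Of 17 other reported targets of YAP and TAZ, 15 were tested. Over all genes tested, 11% were called with CK666, 9.12% with CytoD and 11.8% in CK666 against CytoD. With CK666, 3 were called lower (Crim1, Tgfb2 and Ccdc80) and 1 higher (Gadd45a), and the list median was -0.47 against 0.01 over all genes tested. Gadd45a, a growth arrest gene that also answers stress, was at 316, 279 and 283 in control and 6158, 3618 and 4371 in CK666. The groups were more than an order of magnitude apart, a change of 4.01 (SE 0.19, adjusted p 3.17e-101). Crim1, a membrane protein that binds BMPs, changed by -1.29 (SE 0.15, adjusted p 1.96e-16) and Tgfb2, a TGF-beta ligand, by -1.13 (SE 0.17, adjusted p 5.03e-10). Ccdc80 was just past the fold minimum at -1.02 (SE 0.13, adjusted p 3.75e-14) and was not called with TMM size factors (-0.99) or without control replicate 2 (-0.97), control replicate 3 (-0.93) or CK666 replicate 1 (-0.97). Tgfb2 was not called without CK666 replicate 1 (-0.97) either. With CytoD, 1 of the 15 was called, Gadd45a higher at 1.30 (SE 0.19, adjusted p 5.88e-11), with a list median of -0.23. CK666 against CytoD gave 1 higher (Gadd45a, 2.71) and 1 lower (Arhgef17, -1.01). The Arhgef17 call was lost with edgeR, TMM size factors, or without CK666 replicate 1 (-0.87) or CytoD replicate 2 (-0.99).

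Of all genes tested, 16.2% were called in siArp4 against siControl, 20.4% in siArp4+CK666 against siControl and 5.75% in siArp4+CK666 against siArp4. In siArp4 against siControl 4 of the 15 targets were called higher and 1 lower. Fjx1, the homologue of a Golgi kinase of the fly Fat pathway, rose by 2.51 (SE 0.26, adjusted p 5.49e-20), Tgfb2 by 1.47 and Myof, a membrane repair protein, by 1.33. F3, the coagulation initiator tissue factor, was at 1956, 2360.4 and 2472 in siControl and 419, 492 and 429.8 in siArp4. No siArp4 library came near the siControl range, a change of -2.34 (SE 0.17, adjusted p 4.48e-41). In siArp4+CK666 against siControl 3 were higher (Fjx1, Gadd45a and Tgfb2) and 1 lower (Ccdc80, -1.27), with Tgfb2 at 1.16 and not called without siControl replicate 2 (0.95). CK666 in knockdown cells gave 1 call, F3 higher at 1.44 (SE 0.17, adjusted p 2.48e-15). List medians in these comparisons were 0.41, 0.14 and -0.30.

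With CK666 the medians of the TEAD and VGLL list, the Hippo kinases and adaptors and the scaffolds were -0.03, -0.01 and 0.32. Among TEAD factors and the VGLL cofactors that compete for them, 6 of 8 were tested, and Vgll1 and Vgll2 were at 0. Vgll3 was at 2229, 2209.5 and 2283 in control, 581, 631 and 657 in CK666 and 1578, 1601 and 1509 in CytoD. All 3 groups were separate, and Vgll3 fell with CK666 by 1.85 in log2 terms (SE 0.09, adjusted p 6.57e-89). In the second experiment it was lower in siArp4+CK666 than in siControl at -1.98 (SE 0.21, adjusted p 4.56e-19) and than in siArp4 at -1.40 (SE 0.21, adjusted p 2.69e-09). Tead1, which carries YAP and TAZ to DNA, was called lower with CK666 at -1.05 (SE 0.24, adjusted p 7.10e-05), with libraries of 1109, 2633 and 1889.6 that spread more than its control or CytoD libraries. Without CK666 replicate 1 that change was -0.78 and without control replicate 2 it was -0.98, and neither was called. With CytoD, Tead1 changed by -0.96 (SE 0.24, adjusted p 3.20e-04 in DESeq2 and 0.0122 in edgeR), which missed the fold minimum. CK666 against CytoD gave -0.09 for Tead1 (SE 0.24, adjusted p 0.808). Vgll4 was called higher with CytoD (1.10) and in siArp4+CK666 (1.94), and Tead2 lower in both knockdown groups (-1.08 and -1.29), a call that edgeR kept in siArp4+CK666 alone. Tead2 was not called without siControl replicate 2 in either (-0.72 and -0.93), nor in siArp4 without any 1 siArp4 replicate (-1.03 to -1.13). Set against CytoD, CK666 gave lower Vgll3 (-1.33) and Vgll4 (-1.03), of which Vgll4 was not called without CK666 replicate 1 (-0.85) or in the fit of all 18 libraries.

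Of the 14 Hippo kinases and adaptors, all tested, none was called with CK666 (0 in DESeq2 and 0 in edgeR, with 6 at an unadjusted p below 0.05 in DESeq2). With CytoD 1 was called lower, Wwc1, which reached a mean of only 15.7 normalized counts. Of all genes tested, 11% were called with CK666 and 9.12% with CytoD. Against siControl, 3 of the 14 were called in siArp4 and 3 in siArp4+CK666, beside 16.2% and 20.4% of all genes tested. In siArp4, Stk3 (the kinase MST2, 1.10) and Frmd6 (1.2) were higher and Mob1a (-1.08), the LATS activator, was lower. In siArp4+CK666, Stk3 (1.05), Frmd6 (1.09) and the kinase Map4k4 (1.64) were higher. Stk3 and Mob1a were not called by edgeR in these comparisons. In siArp4 the Stk3 call was also lost without siControl replicate 2 (0.84) or siArp4 replicate 3 (1.03), and that of Mob1a without siControl replicate 1 (-0.76), siArp4 replicate 1 (-1.05) or siArp4 replicate 2 (-1.01). In siArp4+CK666 that of Stk3 was lost without siControl replicates 2 (0.78) or 3 (1.06) or siArp4+CK666 replicates 1 (0.95) or 2 (1.04), and that of Frmd6 without siControl replicates 2 (0.93) or 3 (0.99) or siArp4+CK666 replicate 1 (0.93). Map4k4 was also higher in siArp4+CK666 than in siArp4 (1.09, adjusted p 0.00282 in DESeq2 and 0.0387 in edgeR), a call lost without any 1 siArp4 replicate (1.04 to 1.17) or without siArp4+CK666 replicates 1 (0.91) or 2 (1.09). Of the 4 further angiomotin and LIM scaffolds, Amot was lower with CK666 (-1.12, SE 0.23, adjusted p 1.14e-05) but not called without CK666 replicate 1 (-0.85) and lower with CK666 than with CytoD (-1.07, SE 0.23, adjusted p 2.88e-05) but not called without CK666 replicate 1 (-0.80) or CytoD replicate 1 (-0.995), and Limd1, an Ajuba relative, was higher in siArp4 (1.61, SE 0.14, adjusted p 1.41e-29) and in siArp4+CK666 (1.91, SE 0.14, adjusted p 5.34e-42). Of the remaining CCN genes, Ccn6 was near 0 and Ccn3 was at 1267, 1138 and 1252 in control, 1220.2, 1309.9 and 1318 in CK666 and 2951, 3100.5 and 3277 in CytoD. Ccn3 stood apart with CytoD alone (1.35, SE 0.09, adjusted p 2.37e-44) and was called higher in siArp4 against siControl (1.44, SE 0.27, adjusted p 1.48e-06), and Ccn5 was also above its controls in both.

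**Figure D5:**
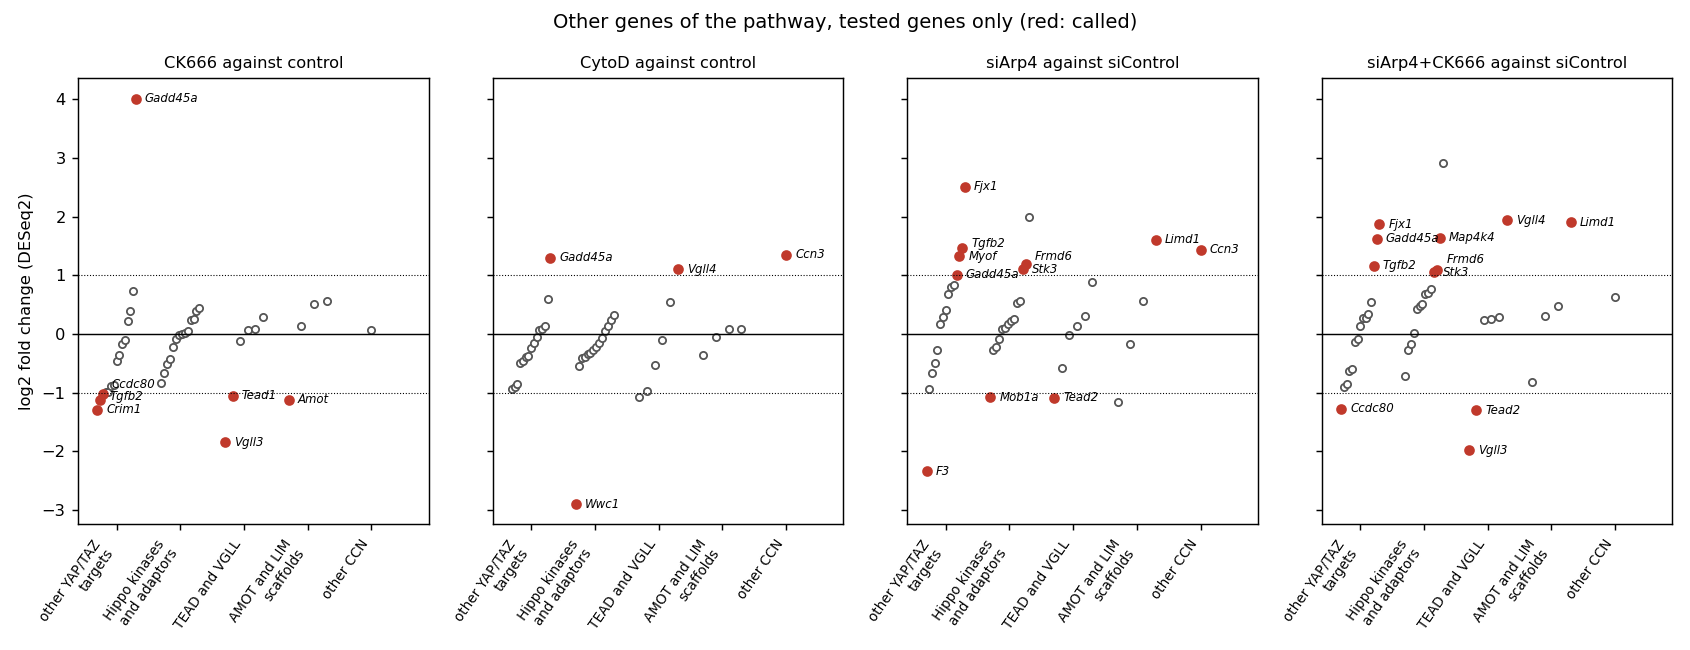
Log2 fold change (DESeq2) of the tested genes of 5 pathway lists in 4 comparisons, one panel each; red points with names were called and open points were not, and dotted lines mark a fold change of 2. Gadd45a is above 4 with CK666, and the other 3 called targets are lower there.

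Across the 18 libraries, the genes whose log2 normalized counts were most like Ccn2 by Pearson correlation, of 9890 compared, were Tubb6 (0.958), Tpm3 (0.947), Ccl7 (0.930), Ppp1r13l (0.923) and Smpd3 (0.917). For Ccn1 they were Hyls1 (0.975), Tagln2 (0.968), Kpna2 (0.965), Mthfd1l (0.962) and Mcm5 (0.962). For Yap1 they were Bzw1 (0.973), Hif1a (0.968) and Slc7a6 (0.965), and for Wwtr1 Dyrk2 (0.961), Pip4p2 (0.958) and Ghitm (0.955). Between members, Ccn1 and Ccn2 had a correlation of 0.775, Yap1 and Wwtr1 of 0.755, Yap1 and Ccn5 of 0.749, and Wwtr1 and Ccn1 of -0.749. The libraries share groups and experiments, so these values describe the 18 points and carry no test.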

How the data were processed

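RNA-seq was done on 18 libraries, 3 per group. The authors quantified unstranded reads with Salmon 1.2.1 against GENCODE vM25 on GRCm38 and deposited estimated counts per gene without scaling; these were rounded to whole numbers, a shift of no more than 277 counts in any library. Symbols and positions came from GENCODE vM21 on the same build (54094 identifiers matched, 253 did not). DESeq2 1.42.0 (R 4.3.3, Wald test, two-sided, unshrunken, independent filtering at 0.01), the tool of the study, was fitted to the 9 libraries of each experiment with group as the term, and to all 18 for the difference of effects. Adjustment was by Benjamini-Hochberg over all genes tested. Alternatives were edgeR 4.0.16 (quasi-likelihood, TMM), TMM size factors, a minimum count of 10 in 3 libraries, no fold minimum, a test against a fold of 2, all libraries in 1 fit, a replicate block and leaving out each library. The fitting steps were tested on simulated data. Replicates of a group differed by at least 6.80 chi-square per degree of freedom, so none was a repeat. Precision is limited by 3 libraries per group. Genes are named by rule: the members, Actl6a, up to 3 called genes per direction and list averaging 100 or more normalized counts, and those most correlated with 4 members over log2(normalized count + 1); Wwc1, Ccn6, Vgll1 and Vgll2 and the marker genes are named beside their counts. Members and lists were chosen with earlier results of these data known. The summed level of the blood cell markers is not reported here.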

Additional observations from a re-analysis of the deposited data

Results flagged for a closer look

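The response to CK666 differed between knockdown and untransfected cells in 3 other targets of YAP and TAZ, by the DESeq2 test of the difference over all 18 libraries. Transfection, knockdown and experiment cannot be told apart in that test. It called 4.42% of all 13511 genes tested. Gadd45a differed by -3.40 in log2 terms (SE 0.27, adjusted p 2.71e-33). Its CK666 change was 4.01 in untransfected cells, and it averaged 293 ± 20.4 normalized counts in control, 3901 ± 660.2 in siControl, 7868 ± 443 in siArp4 and 12003 ± 1644 in siArp4+CK666. Fjx1 differed by -1.38 (SE 0.31, adjusted p 3.08e-04) and F3 by 1.05 (SE 0.19, adjusted p 9.33e-07). The F3 difference was not called without CK666 replicate 2 (0.97), without siArp4 replicate 1 (0.9993) or without siArp4+CK666 replicate 3 (0.96).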

How the results depend on the processing

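Another test (edgeR), TMM size factors, a count filter and a fit over all 18 libraries kept the number of members called within 1.5 times in all 7 comparisons. Member changes kept direction and call in 941 of the recomputed values; 8 reversed, 3 lost the call and 2 gained it, all named here or above. Named list genes kept theirs in 579 values, lost the call in 47 and reversed in none. Without the fold minimum the members called were 6 (CytoD against control), 5 (CK666 against CytoD), 4 (siArp4 against siControl) and 4 (siArp4+CK666 against siArp4). List genes called were then 20 (CK666 against control), 14 (CytoD against control), 20 (CK666 against CytoD) and 5 (siArp4+CK666 against siArp4). Of all genes tested, 30% passed in CK666 against control and 29.6% in CytoD against control by that rule. For the other comparisons, and for the test against a fold of 2, no such share is given. Those counts cannot be weighed against all genes. A test against a fold of 2 left 1 member for CK666 against control, 0 for CK666 against CytoD, 1 for siArp4 against siControl and 1 for siArp4+CK666 against siArp4. It left 2, 0, 1, 3, 2, 0 and 1 list genes in the 7 comparisons, in the order of the report with the difference of effects last. With 1 library left out, list genes called ran from 3 to 9 for CK666 against control (3 without CK666 replicate 1), from 4 to 9 for CK666 against CytoD (4 without CK666 replicate 1) and from 2 to 5 for the difference of effects (5 without CK666 replicate 2, siControl replicate 1 or siControl replicate 2). Uncalled changes that turned sign ranged from -0.175 to 0.0738 for Lats2 (CK666 against control), from -0.0354 to 0.0794 for Yap1 (CK666 against CytoD, and -0.0021 over all 18 libraries), from -0.379 to 0.374 for Ccn4 and from -0.231 to 0.0468 for Amotl2 (siArp4+CK666 against siControl), from -0.208 to 0.0367 for Ccn5 (siArp4+CK666 against siArp4) and from -0.0624 to 0.155 for Ajuba (difference of effects). The cause was not tested. The replicate numbers did not pair the libraries throughout, with correlations of deviations from -0.601 to 0.733. In CK666 against control, 5 of 6 libraries matched their own number best, with correlations of 0.204, 0.158 and 0.0543. Pairing by number remains possible there. In the other comparisons at most 3 of 6 libraries matched their own number best. A replicate block gave 4, 3, 1, 2, 4, 2 and 0 members called, the same counts as without it, and multiplied calls over all genes by 0.918 to 0.981. At these depths no change of Ankrd1 was detectable, since it had at most 1 count in any library.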
